A study of Mus musculus with 6 samples.

Results

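The comparison set CD45-negative lung cells of wild-type (WT) mice 28 days after silica aspiration against the same cells of untreated WT mice (day 0). It was drawn from a study of 6 arrays, of which it uses 2, 1 for each group. A gene was a member if its brightest probe was well above background on at least 1 of the 2 arrays, which 16548 genes were. WT mice were C57BL/6J and carried no transgene or targeted allele per the labels. The other strain of the study, Ccr2KO (B6.129S4-Ccr2tm1Ifc/J), lacks a functional gene for CCR2, the receptor that brings monocytes out of the bone marrow. Mice were 7 to 9 weeks old when the experiments began, and the untreated group had no silica. Lungs were perfused and digested, red cells and silica were taken out on Percoll, and CD45-negative cells, that is cells other than leukocytes, were isolated magnetically. Each RNA was a pool from 3 biological replicates and went on 1 array, so the spread between animals is not measured and no difference below carries a p-value or an SD.

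Inhaled crystalline silica is taken up by lung macrophages, damages them and is not cleared, which keeps inflammation going. In mice as in people, the particles end up in nodules of leukocytes, fibroblasts and collagen, and the thin alveolar wall around them is lost or remodelled. CD45-negative cells include the fibroblasts that lay down the matrix, the epithelium of airways and alveoli, endothelium and mesothelium.

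A level is the log2 of a probe's signal after the 75th percentile of its array was subtracted, so a level of 0 lies at that percentile. A difference is the day 28 level minus the untreated level, and 1 unit is 2-fold. Genes at least 2-fold apart are called higher or lower, and levels of different genes are not compared, because probes differ in brightness. Where the lower array was not well above background for a gene, the change is given as at least N-fold. It is counted from the higher of the gene's own signal there and the lowest signal among probes above background on that array. The fold is a nominal bound, since signals not above background can lie above that lowest signal.

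At day 28, 1573 genes were higher (9.51% of the genes measured) and 1023 were lower (6.18%). Past 4-fold there were more increases than decreases: 590 genes were at least 4-fold higher (3.57%) and 175 at least 4-fold lower (1.06%), and past 8-fold the counts were 246 and 39. The median gene differed by -0.03. Among the higher genes 394 were not well above background untreated, and among the lower genes 312 were not well above background at day 28. The plot of levels shows this as a cloud that is wider above the diagonal.

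**Figure D1:**
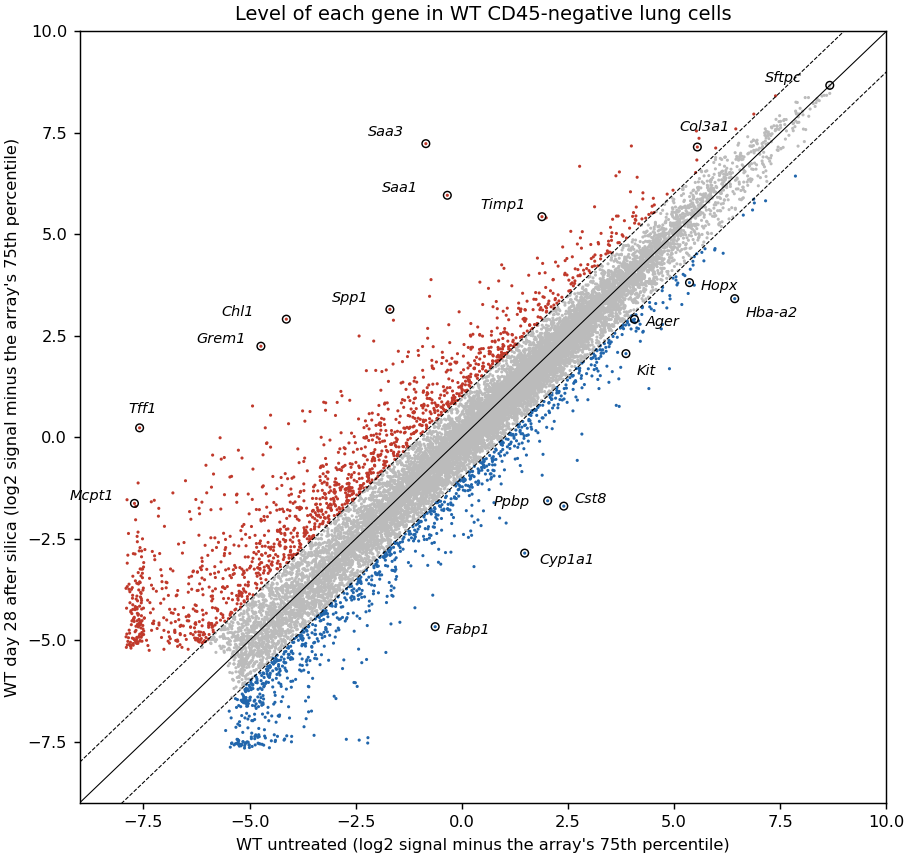
Level of each of the 16548 genes in untreated WT cells (x) and in WT cells at day 28 (y), both on the level scale (log2 units, 0 at the array's 75th percentile). Each point is 1 gene, red where at least 2-fold higher and blue where at least 2-fold lower; the solid line marks equal levels and the dashed lines 2-fold. Saa3, Saa1, Timp1, Spp1 and Grem1 lie far above the line, Cyp1a1, Fabp1 and Ppbp far below it, and Sftpc on it; the band of points near the left and lower edges holds genes not above background on 1 array.

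How far measurement alone moves a difference could be read from repeated spots and from genes with several probes. For 313 probes printed 10 times and above background on both arrays, the SD of the difference over spots had a median of 0.086 and a 95th percentile of 0.253. For 4051 genes with at least 2 probes above background on both arrays, the probes gave differences with a median gap of 0.19, and 187 of these genes had probes over 2-fold apart. Calls of 2-fold or more thus lie outside this spread of spots where a gene was above background on both arrays. For genes not above background on 1 array the spread of spots was not measured. Neither measure holds the spread between mice. A second scale is the pair of untreated arrays, WT and Ccr2KO, where 363 of 16409 genes (2.21%) were at least 2-fold higher in Ccr2KO cells and 552 (3.36%) at least 2-fold lower. WT untreated lay in row 1 of the slide and WT day 28 in row 2, so row and silica cannot be told apart within WT. The Ccr2KO arrays for day 0 and day 28 both lay in row 1 and share no array with the WT pair. Their difference is therefore given beside the WT one as the Ccr2KO difference; it comes from another genotype and is not a replicate. In that pair 1598 of 16558 genes were higher (9.65%) and 1047 lower (6.32%).

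The label CD45-negative was checked first. Ptprc, the gene for CD45 itself, was well above background on both arrays and read 1.54 untreated and 2.62 at day 28, a difference of 1.08 (Ccr2KO, 1.69). All 14 pan-leukocyte genes were above background on both arrays, with levels from -0.58 to 4.84 untreated and from 1.32 to 6.02 at day 28. Their mean level was 2.43 and then 3.69, and 12 of the 14 were higher and none lower, with a median difference of 1.18. None of these defining markers was absent from either array. Leukocyte markers were thus present in both pools and higher at day 28, against the label, and their part in the immune genes described below was not tested. In such bulk RNA, more cells of a type and more RNA per cell cannot be told apart, and the same holds for fewer cells and less RNA. Ccr2 itself read 0.09 and 1.38, a difference of 1.29; in the Ccr2KO cells the same probe read -5.07 and -1.51.

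Acute phase and innate defence genes were higher as a list. Acute phase genes are those that the liver, and in injury the lung epithelium and fibroblasts, turn on for secreted defence and scavenging proteins. The list also holds innate defence genes, and S100a8, S100a9 and Retnlg among its higher members are also neutrophil markers. Of 26 measured, 21 were higher and none lower, with a median difference of 2.17, against 9.51% of all genes higher. Saa3, a serum amyloid A made in inflamed tissue, read -0.85 untreated and 7.23 at day 28, and its difference of 8.08 (Ccr2KO, 5.75) was the largest of all named genes. Saa1, its liver-type relative, read -0.34 and 5.96, a difference of 6.30 (Ccr2KO, 5.41). Both were above background untreated, so these differences are measured on both sides. Saa2 was at least 33.9-fold and Saa4 at least 9.27-fold higher from untreated signals not above background. Near-identical family members can share a probe's signal, so the split among Saa1 and Saa2 is uncertain. Orm1 and Orm2, the orosomucoid plasma carriers, were at least 35.4-fold and at least 30.8-fold higher. Lcn2, the iron-scavenger binding protein lipocalin, read 3.99 and 7.17, a difference of 3.18 (Ccr2KO, 2.30). Lcn2 is also a neutrophil granule gene.

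The promoters of the higher acute phase and innate defence genes were searched for 2 motifs. Of the 21 higher genes, 18 had a promoter in the RefSeq table for GRCm38.p6, which holds 250 bases before to 50 after the gene start. The motif TTNNGCAA, which C/EBP factors bind, was searched on both strands. A gene was counted if any of its promoters in the table held the motif. This was so for 13 of the 18 genes (72.2%), against 12.2% of the 27025 genes in the table. TATAAA was in 9 of 18 (50%), against 15.7%. The motifs were chosen after the values were seen, and a match is a description of letters and not a binding site. List members that were not higher were not counted separately, so these shares do not bear on the change at day 28. Several of the 13 genes are relatives of one another, such as Saa1 and Saa2, so they are not 13 separate cases. The motifs were not looked for outside the promoters of the table. Below are the promoters of the 2 members with the largest differences, both on the minus strand, Saa3 at chr7:46715627-46715926 and Saa1 at chr7:46742931-46743230; capitals mark TTNNGCAA or its reverse complement.
Saa3: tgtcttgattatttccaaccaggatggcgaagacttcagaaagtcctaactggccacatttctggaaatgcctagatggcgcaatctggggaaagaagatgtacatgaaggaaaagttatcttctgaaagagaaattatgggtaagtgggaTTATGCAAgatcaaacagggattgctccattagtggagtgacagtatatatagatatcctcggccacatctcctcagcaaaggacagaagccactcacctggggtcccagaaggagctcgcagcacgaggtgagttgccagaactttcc
Saa1: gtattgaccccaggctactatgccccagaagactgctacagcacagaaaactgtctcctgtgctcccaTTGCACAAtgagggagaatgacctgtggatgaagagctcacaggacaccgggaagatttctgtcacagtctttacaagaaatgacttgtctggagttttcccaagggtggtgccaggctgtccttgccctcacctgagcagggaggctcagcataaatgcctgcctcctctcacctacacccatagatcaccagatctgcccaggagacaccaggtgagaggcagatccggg
Each of the 2 promoters held 1 match.

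Complement genes, whose products coat particles and recruit phagocytes, were higher in 13 of 20 cases and lower in 1, with a median difference of 1.20. C1qa, C1qb and C1qc, the chains of the C1q recognition molecule that macrophages make, differed by 2.76, 2.27 and 2.71. Cfi, the protease that shuts the cascade down, read -2.31 and 0.24, a difference of 2.54. Cfb, the alternative-pathway protease that epithelium and fibroblasts also make, read 2.84 and 5.06. Hc, the gene for C5 and a type 2 alveolar cell gene in the mouse, was the exception at -1.12.

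Chemokine lists had more higher than lower members. The list of neutrophil chemokines and growth factors had 10 of 14 members higher and 1 lower, with a median difference of 2.41. Csf3, the granulocyte growth factor, was at least 11.7-fold higher, from an untreated signal not above background. Cxcl5 read -0.76 and 3.47, a difference of 4.23 (Ccr2KO, 4.82). Cxcl3 read -3.21 and 0.67, a difference of 3.88 (Ccr2KO, 3.26). Both are ligands of CXCR2. Il17a, the lymphocyte cytokine that drives their transcription in stroma, read -1.78 and 1.66, a difference of 3.44 (Ccr2KO, 3.79). Il1b, the inflammasome product central to silica injury, differed by 2.55, from 3.12 to 5.68, and Tnf by 1.5, from -0.28 to 1.22. Cxcl15, a lung epithelial chemokine of the same family, was lower at -1.03. Il6 read 4.28 and 5.05, a difference of 0.76 that stays under 2-fold, whereas the Ccr2KO difference was -2.30 from an untreated level of 6.46.

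The ligands of CCR2 were all higher. Ccl7 read -0.07 and 3.09, a difference of 3.16 (Ccr2KO, 1.62). Ccl12 differed by 2.71 (Ccr2KO, 1.86), Ccl2 by 2.63 (Ccr2KO, 1.65) and Ccl8 by 2.61 (Ccr2KO, 3.92). The untreated levels differed between the strains, since Ccl7 read 2.14 and Ccl2 3.58 in untreated Ccr2KO cells against -0.07 and 1.78 in untreated WT cells. Of the 14 genes in the list of CCR2, its ligands and other monocyte chemokines, 9 were higher and none lower, with a median difference of 1.37. Lymphocyte and eosinophil chemokines were higher in 10 of 13 cases with none lower, and their median difference was 1.93. Cxcl13, which draws B cells into follicles, read -2.08 and 2.37, a difference of 4.45 (Ccr2KO, 3.48). Cxcl9, induced by interferon-gamma, read -4.08 and 0.33, a difference of 4.42, and its second probe gave 2.83. Ccl17, a ligand of CCR4 on T cells, differed by 3.04, and Ccl24, an eosinophil chemokine, was at least 9.49-fold higher. Among 33 interleukins and receptors, 14 were higher and none lower. Il1rn, the natural antagonist of interleukin 1, was at least 33-fold higher, and Il2ra, a subunit of the interleukin 2 receptor, read -3.11 and -0.07.

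Genes that mark the entry of leukocytes and the stroma of lymphoid tissue were higher in 15 of 21 cases and lower in 1, with a median difference of 1.55. Glycam1, a mucin-like ligand for L-selectin on high endothelial venules, was at least 16.5-fold higher (measured difference 6.35; Ccr2KO, 4.98). Tnfsf11, which codes for RANKL, was at least 22.4-fold higher. Ackr1, the atypical chemokine receptor of venules, read -2.82 and 1.02, a difference of 3.85 (Ccr2KO, 2.77). Selp and Sele, endothelial selectins, differed by 2.24 and 1.83; Sele was chosen after its values were seen. Lta, a lymphotoxin of lymphocytes that shapes lymphoid tissue, differed by 2.67. The 1 lower member was Chst4, a sulphotransferase of high endothelial venules, at -1.43.

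Markers of blood-borne leukocytes moved with these genes. Neutrophil genes were higher in 15 of 18 cases with none lower and a median difference of 2.78. Ngp, a granule protein, read -4.68 and -0.43, a difference of 4.25, and Mpo, myeloperoxidase, read -4.92 and -0.78, a difference of 4.14. Stfa1, a stefin of neutrophils, read -3.75 and 0.65, a difference of 4.40. In Ccr2KO cells these 3 genes differed by 4.58, 3.89 and 2.89. T and NK cell genes were higher in 13 of 22 cases with none lower, and the median difference was 1.12. Ctla4 differed by 3.48, Icos by 2.39 and Foxp3, the factor of regulatory T cells, by 2.24. B and plasma cell genes were higher in 11 of 16 cases with none lower, and the median difference was 1.28. Jchain, which joins secreted IgA and IgM, read 1.99 and 5.41, a difference of 3.42 (Ccr2KO, 0.89). Mzb1, a plasma cell chaperone, read -0.70 and 1.76, a difference of 2.46 (Ccr2KO, 1.31).

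Of 30 macrophage and monocyte genes 16 were higher and 2 lower, and the median difference was 1.13, against 9.51% higher and 6.18% lower among all genes. Spp1, the gene for osteopontin, read -1.70 and 3.15, a difference of 4.85 (Ccr2KO, 4.16). Mmp12, macrophage elastase, was at least 13.5-fold higher, and Clec4n, a C-type lectin receptor, read 0.42 and 3.82, a difference of 3.40. Trem2, a receptor of lipid-laden macrophages that was chosen after its values were seen, read -1.32 and 1.18, a difference of 2.50. The 2 lower genes, Fabp1 and Marco, are expressed by resident alveolar macrophages. Other listed genes of these cells, Siglecf, Chil3, Fabp4, Pparg and Car4, were not 2-fold lower, and Car4 differed by 0.24. Fabp1 read -0.63 and -4.67, a difference of -4.04, whereas the Ccr2KO difference was 1.15. Marco, a scavenger receptor that binds silica, read 0.60 and -1.06, a difference of -1.66, against 3.17 in Ccr2KO cells. Here the untreated arrays differed widely: untreated Ccr2KO cells read -5.31 for Fabp1 and -2.75 for Marco. Among mast cell, basophil and eosinophil genes 9 of 19 were higher and 2 lower. Mcpt1, a mucosal mast cell protease, was at least 15.5-fold and Prg2, an eosinophil granule protein, at least 22.1-fold higher. Kit, the receptor that mast cells and some endothelium carry, was lower and read 3.86 and 2.06, a difference of -1.8 (Ccr2KO, 0.23). Gata2, a transcription factor of both, differed by -1.29.

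Platelet and erythroid genes went the other way. Platelet and megakaryocyte genes were lower in 10 of 15 cases with none higher and a median difference of -1.97, against 6.18% of all genes lower. Ppbp, the precursor of platelet basic protein, read 2.02 and -1.56, a difference of -3.58 (Ccr2KO, -3.72). Gp9, a subunit of the von Willebrand factor receptor, read 0.28 and -3.19, a difference of -3.47 (Ccr2KO, -4.16). Treml1 of the alpha granules differed by -2.88 (Ccr2KO, -3.22). Erythroid genes were lower in 8 of 11 cases with none higher, and their median difference was -3.01. Hbb-b2 read 2.72 and -0.57, a difference of -3.29 (Ccr2KO, -3.78), and Hba-a1 read 4.89 and 1.69, a difference of -3.20 (Ccr2KO, -3.73). Globin genes are near-identical copies, and probes may read more than 1 of them.

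**Figure D2:**
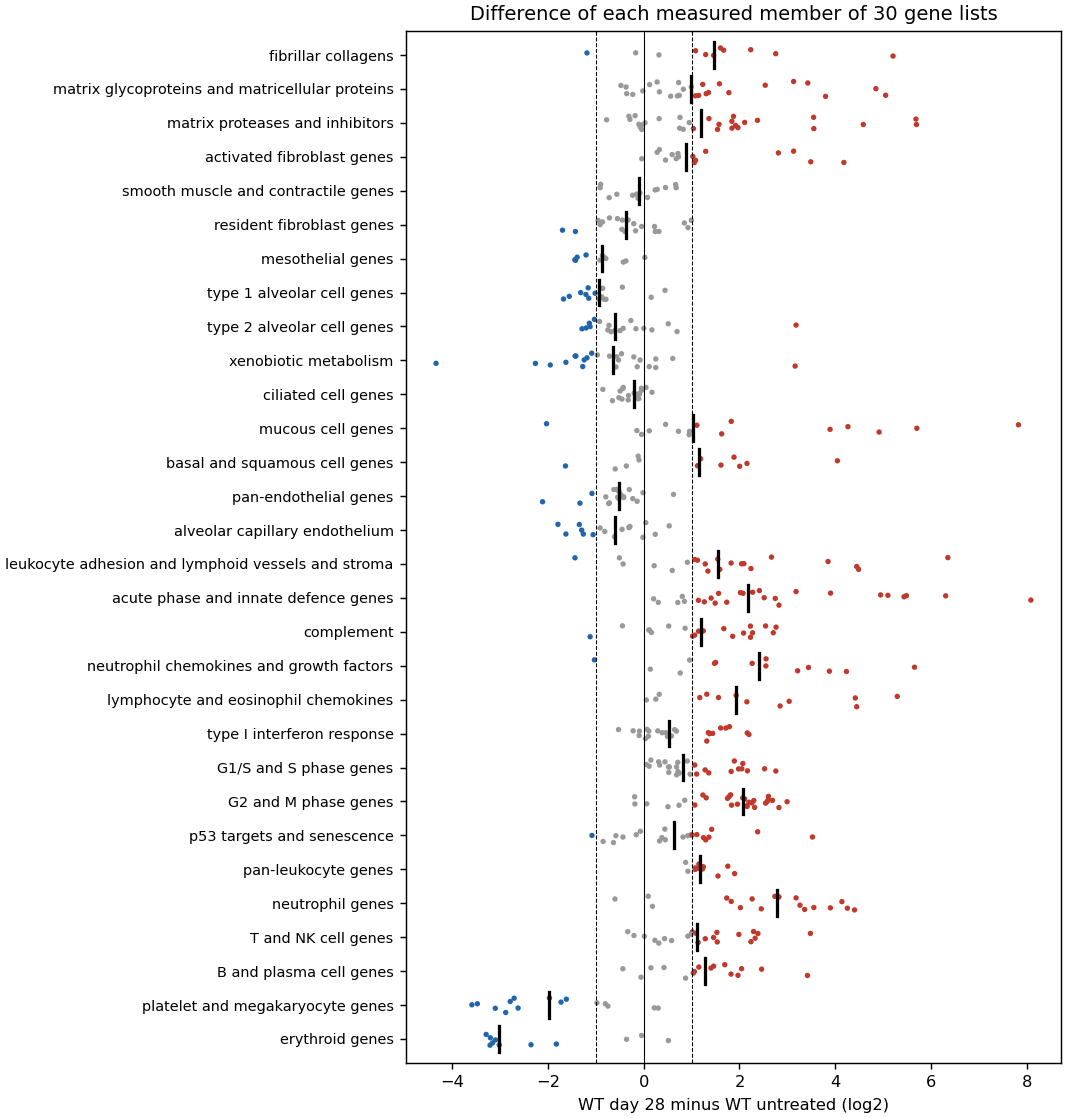
Difference (WT day 28 minus WT untreated, log2) of each measured member of 30 of the 54 gene lists. Each point is 1 gene, red where at least 2-fold higher, blue where at least 2-fold lower and grey between, placed with random vertical scatter; the black bar is the median of the list. Medians run from -3.01 for erythroid genes to 2.78 for neutrophil genes. Many lists have medians within 2-fold of no difference, among them ciliated cell (-0.20), smooth muscle (-0.10), resident fibroblast (-0.36) and type 1 alveolar cell genes (-0.93).

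The fibrillar collagens, which form the scar itself, were higher in 8 of 11 cases and lower in 1, and the median difference was 1.46. Col3a1 read 5.55 untreated and 7.15 at day 28, a difference of 1.6 (Ccr2KO, 1.8). Col1a1 read 5.53 and 6.83, a difference of 1.29 (Ccr2KO, 1.64). Col5a2, which nucleates type I fibrils, read 0.05 and 2.29, a difference of 2.23 (Ccr2KO, 2.34). All of these probes were well above background on both arrays. Col24a1, a minor fibrillar collagen, was at least 12.5-fold higher and Col11a1, a collagen of cartilage, at least 5.03-fold higher, both from untreated signals not above background. The lower member was Col2a1, at least 1.81-fold, from a level of -4.86 to a signal not above background.

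Among the 27 other collagens measured, 9 were higher and 4 lower, and the direction followed the chain. Col22a1 was at least 14.3-fold and Col10a1 at least 6.58-fold higher. Col15a1 and Col28a1 differed by 1.69 and 2.32. Among the lower chains were Col4a3 and Col4a4 of the alveolar basement membrane. Col4a3 read 0.56 and -0.91, a difference of -1.46 (Ccr2KO, -1.95), and Col4a4 read 1.37 and 0.14, a difference of -1.23 (Ccr2KO, -1.74). The ubiquitous chains Col4a1 and Col4a2, named after their values were seen, differed by 1.01 and 1.14. Col25a1 was at least 2.63-fold lower, and Col17a1, the hemidesmosome collagen, was the other lower gene at -1.14; it too was chosen after its values were seen. Of 22 genes for collagen folding, processing and crosslinking, 5 were higher and none lower. Loxl2, a lysyl oxidase that crosslinks fibrils, read 1.54 and 3.35, a difference of 1.82 (Ccr2KO, 2.43), and Lox read 0.00 and 1.27, a difference of 1.27 (Ccr2KO, 0.36). Fkbp10, a procollagen chaperone, differed by 1.16.

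Matrix glycoproteins and matricellular proteins were higher in 13 of 27 cases with none lower, and the median difference was 1.0. Thbs4, a thrombospondin, read -4.51 and 0.55, a difference of 5.05 (Ccr2KO, 4.05), and Thbs2 read -2.94 and 0.86, a difference of 3.80 (Ccr2KO, 4.71). Cilp, a matrix protein that binds TGF-beta, read -1.62 and 1.8, a difference of 3.43 (Ccr2KO, 3.60). Tnc, the injury-induced tenascin, differed by 3.13, and its second probe by 1.95. By their brightest probes these genes were 8-fold or more higher at day 28, which the second Tnc probe did not reach. Fn1, fibronectin, read 5.58 and 7.36, a difference of 1.78 (Ccr2KO, 1.45). Has2, a hyaluronan synthase, differed by 2.54. Of 9 small leucine-rich proteoglycans, 3 were higher and 1 lower. Fmod, which regulates fibril thickness, read -0.22 and 1.39, a difference of 1.61, and Omd was lower at -1.46 (Ccr2KO, -2.46).

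Matrix proteases and their inhibitors were higher in 16 of 30 cases with none lower, and the median difference was 1.20. Mmp10, a stromelysin, was at least 47.5-fold and Mmp13, a collagenase, at least 16.3-fold higher. Mmp8, the neutrophil collagenase, read -2.64 and 0.91, a difference of 3.55 (Ccr2KO, 3.03). The protease inhibitor Timp1 read 1.89 and 5.43, a difference of 3.55 (Ccr2KO, 3.12). Proteases and an inhibitor of theirs were thus higher on the same array. Mmp9, gelatinase B, differed by 2.38. Serpine2, an inhibitor of plasminogen activators, differed by 1.97 (Ccr2KO, 0.97). Among all 16 serpins measured, 9 were higher and none lower, and Serpinb5, maspin, was at least 7.74-fold higher.

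The signalling genes around fibroblasts differed by role. Tgfb1, the ligand most tied to fibrosis, read 0.72 and 1.39, a difference of 0.67 that is under 2-fold (Ccr2KO, 0.74). In its list of 21 genes, 5 were higher and none lower, and these were not TGF-beta ligands. Inhba, the activin A subunit, read -1.5 and 2.12, a difference of 3.62 (Ccr2KO, 2.88), and Fst, follistatin, which neutralises activin, read -1.88 and 1.62, a difference of 3.50 (Ccr2KO, 3.57). Ltbp2, a latent TGF-beta binding protein of elastic fibres, read 3.63 and 6.44, a difference of 2.81 (Ccr2KO, 2.82). Inhbb and Tgfbi differed by 1.91 and 1.51.

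BMP ligands and antagonists were higher in 3 of 19 cases and lower in 1, against 9.51% and 6.18% of all genes. Their median difference was -0.25. Grem1, which binds and blocks BMP ligands, read -4.73 and 2.24, a difference of 6.98 (Ccr2KO, 8.74). Chrdl2, another BMP antagonist, was at least 7.04-fold higher. Gdf15, described below, was also higher, and Bmp6 was the lower one, with levels of 3.70 and 1.44 and a difference of -2.26 (Ccr2KO, -1.69). In the Wnt list 7 of 28 were higher and 3 lower, with a median difference of 0.09. Secreted Wnt antagonists lay on both sides, Sfrp1, Frzb and Dkk2 among the higher genes and Dkk1 among the lower. Sfrp1 read -0.81 and 2.68, a difference of 3.49 (Ccr2KO, 2.32), Frzb was at least 18.5-fold higher and Dkk2 differed by 2.37 (Ccr2KO, 3.37). Wnt10a, a ligand, was at least 25.6-fold higher. Wnt7a, Dkk1 and Wnt3a were lower: Wnt7a differed by -2.0, while Dkk1 and Wnt3a ended at signals not above background, at least 1.88-fold and at least 3-fold lower.

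Markers of activated fibroblasts were higher in 8 of 16 cases with none lower, and the median difference was 0.88. Lrrc15, a surface protein of matrix-producing fibroblasts, was at least 18-fold higher (measured difference 4.18; Ccr2KO, 5.76). Postn, periostin, read 2.52 and 3.60, a difference of 1.08 (Ccr2KO, 2.0). Acta2, the smooth muscle actin of myofibroblasts and vessel walls, read 5.21 and 5.66, a difference of only 0.46 (Ccr2KO, 0.82). None of the 14 smooth muscle and contractile genes was higher or lower, with a median difference of -0.10. Of 20 resident fibroblast genes, none was higher and 2 were lower, against 9.51% and 6.18% of all genes. Fgfr4 read 2.69 and 0.99, a difference of -1.69 (Ccr2KO, -2.69), and Inmt, a methyltransferase of alveolar fibroblasts, read 7.86 and 6.43, a difference of -1.42 (Ccr2KO, -2.42). The median of this list was -0.36 in WT and -1.03 in Ccr2KO cells, where 11 genes were lower. Pericyte genes had 2 of 12 higher, Rgs5 by 1.48 and Postn, and a median of -0.53.

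Type 1 alveolar cells form the thin gas-exchange surface. Of 15 of their genes, 7 were lower and none higher, with a median difference of -0.93, and in Ccr2KO cells 13 were lower. Akap5 read 4.26 and 2.59, a difference of -1.67 (Ccr2KO, -2.02), and Hopx, a transcriptional cofactor, read 5.36 and 3.81, a difference of -1.55 (Ccr2KO, -2.37). Ager, the receptor RAGE and the usual marker of these cells, read 4.07 and 2.91, a difference of -1.16 (Ccr2KO, -1.76). Vegfa, which this epithelium supplies to capillaries, read 5.07 and 3.75, a difference of -1.31 (Ccr2KO, -1.22). Clic5 and Cav1 were lower by similar amounts, at -1.20 and -1.15.

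Type 2 alveolar cells make surfactant, and their genes did not go as one. Of 19, 5 were lower and 1 higher, with a median difference of -0.61. Sftpc, the surfactant protein found in these cells alone, read 8.66 and 8.67, a difference of 0.00 (Ccr2KO, -0.10). Signals this bright were not saturated on any array. Sfta2 read 5.09 and 3.80, a difference of -1.29 (Ccr2KO, -1.26), and Etv5, a transcription factor that maintains these cells, read 5.21 and 4.01, a difference of -1.20 (Ccr2KO, -1.24). Slc34a2, the phosphate transporter, differed by -1.13. The higher member was Lcn2, described above. Among 28 genes of surfactant lipid and sterol synthesis 2 were higher and 2 lower, against 9.51% and 6.18% of all genes. Dgat2 and Elovl6 differed by 1.45 and 1.35, and Lpcat1 and Pla2g1b, which remodel phospholipids, by -1.20 and -1.31. Genes of transitional alveolar epithelium, a state seen after injury, had 4 of 20 higher and 1 lower, against the same 9.51% and 6.18%. Ereg, an EGF receptor ligand, read -1.91 and 1.16, a difference of 3.07 (Ccr2KO, 2.59), while Edn1, endothelin 1, differed by -1.20 (Ccr2KO, -0.45).

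Airway genes separated by cell type. None of the 19 ciliated cell genes was higher or lower, with a median difference of -0.20, and Foxj1, their master regulator, differed by 0.17. Scgb1a1, the main club cell secretion, differed by -0.13, from 8.42 to 8.29. Of 10 club cell genes 1 was higher and 2 lower, against 9.51% and 6.18% of all genes. Mucous cell genes were higher in 8 of 16 cases and lower in 1, with a median difference of 1.04. Tff1, a trefoil peptide of mucous epithelium, was at least 56.2-fold higher, and both of its probes gave a large difference, 7.82 and 8.15. Dmbt1, a mucosal scavenger receptor, read -4.93 and 0.77, a difference of 5.70 (Ccr2KO, 4.41), and Itln1, intelectin, read -4.51 and -0.24, a difference of 4.26 (Ccr2KO, 4.16). Clca1, secreted by goblet cells, read -2.42 and 2.49, a difference of 4.92 against 0.75 in Ccr2KO cells, and Gp2 differed by 3.89 against 0.85. For these last genes the day 28 levels in Ccr2KO cells were 2.68 and 2.04, and the untreated levels were already 1.93 and 1.19. Bpifa1, an airway defence secretion, was the lower one at -2.03.

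Basal and squamous cell genes were dim and higher in 7 of 12 cases and lower in 1, with a median difference of 1.16. Krt14 read -3.72 and -1.56, a difference of 2.16 (Ccr2KO, 3.05), and Krt5 read -2.02 and -0.13, a difference of 1.89 (Ccr2KO, 3.45). Krt17 differed by 2.0. These keratins mark the basal cells of the airway and the pods they form after injury. Trp63, the basal cell factor, was chosen after its values were seen: it differed by -0.36 by its brightest probe and by 2.02 by the other. Krt15 was lower at -1.63.

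Genes of xenobiotic metabolism, active in club cells, alveolar epithelium and fibroblasts, were lower in 10 of 24 cases and higher in 1, with a median difference of -0.64. Cyp1a1, a target of the aryl hydrocarbon receptor, read 1.48 and -2.85, a difference of -4.33. In Ccr2KO cells it was already at -1.67 untreated and differed by -0.85. Aox3 read 1.41 and -0.85, a difference of -2.26 (Ccr2KO, -1.29), and the flavin monooxygenase Fmo1 read 4.73 and 2.78, a difference of -1.95 (Ccr2KO, -1.69). Cyp4b1 read 6.15 and 4.53, a difference of -1.62 (Ccr2KO, -2.08). Cyp1b1, which fibroblasts express, was the higher one and read -0.93 and 2.24, a difference of 3.16 (Ccr2KO, 3.21).

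Most endothelial genes differed by less than 2-fold. Of 19 pan-endothelial genes 3 were lower, none was higher and 16 lay between, with a median difference of -0.52, and Pecam1 differed by -0.23. Tek, the angiopoietin receptor, read 3.46 and 1.35, a difference of -2.11 (Ccr2KO, -0.28). Ptprb, which acts on that receptor, read 7.15 and 5.82, a difference of -1.33 (Ccr2KO, -0.70), and Sox17 differed by -1.08 (Ccr2KO, 0.41). All 3 were at lower levels in untreated Ccr2KO than in untreated WT cells (2.02, 6.43 and 2.36 against 3.46, 7.15 and 3.56). Alveolar capillary genes were lower in 6 of 17 cases with none higher, and the median was -0.61. Hpgd, which degrades prostaglandins, read 5.33 and 3.54, a difference of -1.79 (Ccr2KO, -1.55), and Ednrb, the endothelin B receptor, read 2.43 and 1.08, a difference of -1.34 (Ccr2KO, -2.23). Mesothelial genes, from the pleural surface, were lower in 4 of 11 cases with none higher; Upk3b read 1.91 and 0.48, a difference of -1.44 (Ccr2KO, -0.98). Lymphatic genes had 2 of 11 higher, Thy1 by 2.21 and Nts by 2.13, with none lower.

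Cell cycle genes were higher as a group. G2 and M phase genes were higher in 23 of 29 cases with none lower and a median difference of 2.07, and in Ccr2KO cells 26 were higher. Top2a, the topoisomerase that untangles chromosomes, read -3.21 and -0.52, a difference of 2.69 (Ccr2KO, 2.84). Cdk1, the mitotic kinase, read -3.32 and -0.71, a difference of 2.60 (Ccr2KO, 2.60). Birc5, survivin, read -0.71 and 1.89, a difference of 2.60 (Ccr2KO, 2.53). The G1/S and S phase genes were higher in 12 of 28 cases with none lower, and their median was 0.83. Exo1, a DNA repair exonuclease, read -4.96 and -2.20, a difference of 2.76 (Ccr2KO, 2.19), and Uhrf1, which keeps DNA methylation through replication, read -2.24 and 0.28, a difference of 2.52 (Ccr2KO, 2.28). Leukocyte genes were also higher on this array, and their part in the cell cycle genes was not tested.

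Promoters of mitotic genes are known for CCAAT boxes, bound by NF-Y, and for the cell cycle homology region with the core TTTGAA. Both motifs were searched on both strands for the 18 genes with a promoter in the table among the 23 higher G2 and M phase genes. CCAAT was found for 14 genes (77.8%), against 41.1% of all 27025 genes in the table, and TTTGAA for 13 (72.2%), against 20.2%. Both were found for 12 (66.7%), against 8.97% of all. List members that were not higher were not counted separately, so these shares do not bear on the change at day 28. A match is a description of letters and not a binding site. Below are the promoters with the largest differences among those 12 genes, both on the minus strand, Top2a at chr11:99024140-99024439 and Cdk1 at chr10:69352863-69353162. Capitals mark the motifs or their reverse complements ATTGG and TTCAAA.
Top2a: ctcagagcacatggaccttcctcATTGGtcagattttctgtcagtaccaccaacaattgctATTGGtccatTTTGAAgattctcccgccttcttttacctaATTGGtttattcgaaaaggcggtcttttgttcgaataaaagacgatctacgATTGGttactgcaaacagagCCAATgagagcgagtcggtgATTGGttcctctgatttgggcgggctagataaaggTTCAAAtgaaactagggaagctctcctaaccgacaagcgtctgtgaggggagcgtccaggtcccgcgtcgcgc
Cdk1: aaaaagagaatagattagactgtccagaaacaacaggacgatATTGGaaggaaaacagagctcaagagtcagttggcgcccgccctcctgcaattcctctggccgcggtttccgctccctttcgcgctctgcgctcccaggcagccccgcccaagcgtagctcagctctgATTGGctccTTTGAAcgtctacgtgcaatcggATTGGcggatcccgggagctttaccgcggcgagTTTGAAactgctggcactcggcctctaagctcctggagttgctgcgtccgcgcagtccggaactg
Top2a held 8 matches and Cdk1 held 5.

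Type I interferon response genes were higher in 9 of 24 cases with none lower, and the median difference was 0.54; in Ccr2KO cells 4 were higher. Rsad2, viperin, read -1.08 and 1.11, a difference of 2.20 (Ccr2KO, 1.29), and Zbp1, a nucleic acid sensor, read -0.10 and 2.06, a difference of 2.16 (Ccr2KO, 1.29). Isg15, named after its value was seen, read 3.45 and 4.83, a difference of 1.38 against 0.31 in Ccr2KO cells, whose untreated level was 4.44. Of the 9 higher genes 6 had a promoter in the table. A core of the interferon-stimulated response element (TTTC, any 2 bases, TTTC) was found on either strand for 4 of them (66.7%), against 3.99% of all genes in the table. List members that were not higher were not counted separately, so this share does not bear on the change at day 28. A match is a description of letters and not a binding site. The promoter of Rsad2, the largest of them, at chr12:26456403-26456702 on the minus strand, held 1 match, in capitals.
Rsad2: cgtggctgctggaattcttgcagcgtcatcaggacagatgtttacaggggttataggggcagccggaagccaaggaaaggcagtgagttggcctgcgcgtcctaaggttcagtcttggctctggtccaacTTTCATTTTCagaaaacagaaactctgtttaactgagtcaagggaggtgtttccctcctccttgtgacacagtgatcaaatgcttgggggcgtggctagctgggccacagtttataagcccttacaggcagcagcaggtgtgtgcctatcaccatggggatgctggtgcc
Genes of the interferon-gamma response and antigen presentation had 3 of 30 higher and 1 lower, against 9.51% and 6.18% of all genes. Their median difference was 0.16. The 3 were Cxcl9, Cxcl10 and H2-DMb2, and the lower one was Gbp4 at -1.14.

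The list of p53 targets and senescence genes had medians of opposite sign in the WT and the Ccr2KO pair. In WT cells 8 of 22 were higher and 1 lower, with a median difference of 0.64, whereas in Ccr2KO cells 1 was higher and 3 lower, with a median of -0.28. Gdf15, a stress cytokine, read 1.90 and 4.28, a difference of 2.38, against 4.98 and 3.32, a difference of -1.66, in Ccr2KO cells. Phlda3, an inhibitor of AKT, read 4.02 and 5.44, a difference of 1.42, against 5.60 and 5.34, a difference of -0.26. Zmat3 differed by 1.36 against -0.18 and Aen by 1.25 against -0.28. The day 28 levels of the strains lay close together, with a median Ccr2KO minus WT difference of -0.14 over the list, while the untreated levels did not. Untreated Ccr2KO cells were above untreated WT cells for 18 of the 22 genes, 7 of them at least 2-fold, with a median of 0.55 against 0.05 over all genes. Of the senescence genes in the list, Cdkn2a, which codes for p16 and p19Arf, was higher in both pairs, by 1.30 and 1.96. Cdkn2b was the 1 lower gene in WT, at -1.08. With 1 array per group the difference between the pairs was not tested.

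**Figure D3:**
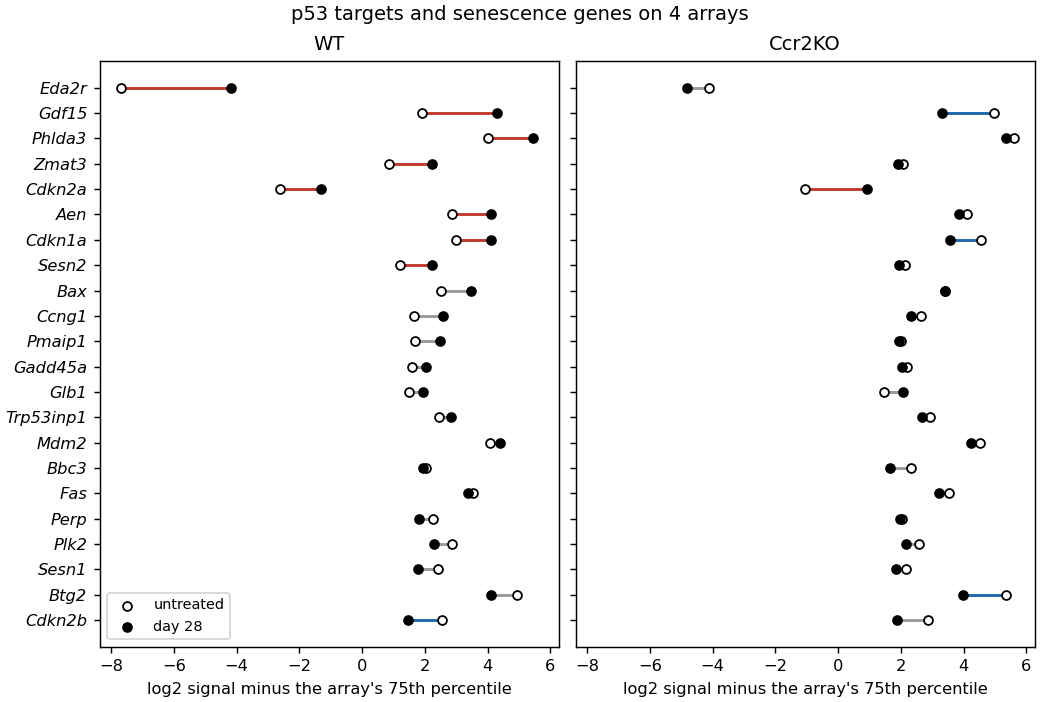
Levels of the 22 p53 target and senescence genes (log2 units, 0 at the array's 75th percentile) on the 2 WT arrays (left) and the 2 Ccr2KO arrays (right). Open circles are untreated and filled circles day 28 cells, joined by a line that is red where at least 2-fold higher at day 28, blue where at least 2-fold lower and grey between. In WT 8 lines are red; in Ccr2KO cells 1 is red and 3 are blue, and the open circles of Gdf15, Phlda3, Zmat3 and Aen lie to the right of those in WT.

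Immediate early and stress genes are known to be induced by cell isolation itself. Of 32, 3 were higher and none lower, against 9.51% and 6.18% of all genes, with a median of -0.25 and a Ccr2KO median of -0.67. Untreated Ccr2KO cells read above untreated WT cells for 28 of the 32. Myc differed by 1.14, Hsph1 by 1.02 and Fosl1 by 1.0. Hspa1a, the inducible heat shock protein, differed by 0.69 in WT and by -2.96 in Ccr2KO cells, whose untreated level of 4.36 stood above the 1.32 of WT cells. NRF2 targets, the antioxidant genes, were higher in 3 of 20 cases and lower in 1, against 9.51% and 6.18% of all genes. Slc7a11, the cystine importer, read -5.30 and -1.6, a difference of 3.70 (Ccr2KO, 2.78), and Hmox1, which breaks down haem, read 1.63 and 2.64, a difference of 1.01 (Ccr2KO, 0.82). Osgin1 was the lower one, with a difference of -1.0. Hypoxia and glycolysis genes were higher in 6 of 27 cases and lower in 1, with a median of 0.62. Egln3, an oxygen-sensing hydroxylase, read -3.19 and -0.67, a difference of 2.52 (Ccr2KO, 2.64), and Slc16a3, the lactate exporter, differed by 1.52. Of 19 circadian clock genes none was higher and 1, Nr1d1, was lower, by -1.16, against 9.51% and 6.18% of all genes.

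Growth factors of the alveolar niche had 3 of 29 higher and 2 lower, near the 9.51% and 6.18% of all genes. Igf1, which fibroblasts and macrophages secrete, read 0.73 and 3.21, a difference of 2.48 (Ccr2KO, 2.96), and Pdgfc differed by 1.11. Fgf1 was lower at -1.03. Among 26 membrane transporters 8 were higher and 5 lower. Slc26a4, the anion exchanger pendrin of inflamed airway epithelium, read 0.63 and 3.67, a difference of 3.04 (Ccr2KO, 1.82), and Slc39a14, a zinc and iron importer, read 0.21 and 2.80, a difference of 2.59 (Ccr2KO, 2.09). Slc5a12, a lactate transporter, read 0.38 and -2.04, a difference of -2.41 (Ccr2KO, -3.79), and Slc7a10 read 1.91 and -0.42, a difference of -2.33 (Ccr2KO, -3.57). Slc6a4, the serotonin transporter of lung endothelium and platelets, differed by -2.10 (Ccr2KO, -1.65). Cardiac muscle genes, which mark the myocardial sleeves of pulmonary veins, had 5 of 17 lower and 2 higher; Myh7 read 2.97 and 0.93, a difference of -2.04 (Ccr2KO, -1.92).

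The extremes of the ranking were less even than the lists. Of the 20 named genes with the largest increases, 15 were not above background untreated, and 17 were also at least 2-fold higher in the Ccr2KO pair. Chl1, a neural cell adhesion molecule, was measured on both sides and read -4.13 and 2.91, a difference of 7.04, with 7.93 by its second probe and 5.18 in Ccr2KO cells. Cdhr1 was at least 22.8-fold and Ubd, a ubiquitin-like modifier induced by inflammation, at least 29.7-fold higher, and the Ccr2KO differences were 3.10 and 2.13. The 3 without a Ccr2KO counterpart were Lce1a1 (at least 22-fold; Ccr2KO, 0.03), Eras (at least 14.7-fold; Ccr2KO, 0.68) and Npas3 (at least 14.2-fold; Ccr2KO, -1.5). Each of these had 1 probe, and the 2 Ccr2KO signals were not above background. Of the 20 largest decreases, 14 ended at a signal not above background, and 12 were at least 2-fold lower in the Ccr2KO pair as well, while 5 had no difference of the same sign there. Mhrt, a cardiac non-coding RNA, and Gfap, an astrocyte filament gene, were each at least 11.3-fold lower, with Ccr2KO differences of -0.65 and -1.05 between signals not above background. The second Gfap probe gave -0.56. Pgr, the progesterone receptor, was at least 11.4-fold lower, with -2.94 by its second probe. Cst8, a cystatin, was above background throughout and read 2.40 and -1.70, a difference of -4.10 (Ccr2KO, -3.52).

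Across genes, the WT and Ccr2KO pairs were set side by side for the 15367 genes above background on all 4 arrays. Of 1146 such genes higher in WT, 835 (72.9%) were also at least 2-fold higher in the Ccr2KO pair, which is 70.4% of the 1187 genes higher there; over all 15367 genes 7.72% were higher in the Ccr2KO pair. Of 697 lower in WT, 373 (53.5%) were also at least 2-fold lower, which is 44.3% of the 842 lower in Ccr2KO, and over all 15367 genes 5.48% were lower there. Opposite differences of at least 2-fold were found for 3 of the higher genes (Gdf15, Cdkn1a and Cxcl10) and 5 of the lower ones (Fabp1, Marco, Crygc and, chosen after their values were seen, Erv3 and Olfr1243). Of the 300 genes at least 4-fold higher in WT, 278 were also higher in the Ccr2KO pair.

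**Figure D4:**
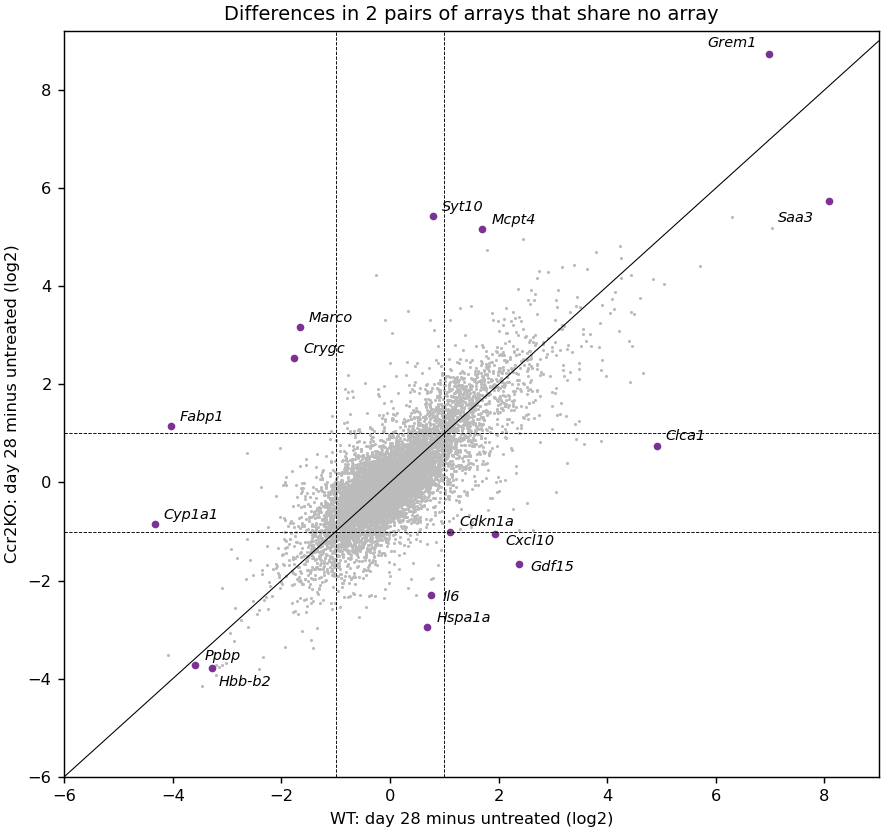
Difference at day 28 in WT cells (x, log2) and in Ccr2KO cells (y, log2) for the 15367 genes above background on all 4 arrays; each point is 1 gene, the solid line marks equal differences and the dashed lines 2-fold. Most points lie along the line; named points off it include Gdf15 (2.38 and -1.66), Marco (-1.66 and 3.17) and Fabp1 (-4.04 and 1.15).

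The genes whose WT and Ccr2KO differences lay farthest apart were of mixed kinds. Counted with its sign, the WT difference lay farthest above the Ccr2KO one for Clca1, Gdf15, Hspa1a, Gp2 and Il6. The same held for Ccdc184 (2.64 against -0.97), Sowaha (2.38 against -0.98) and Mapk8ip2, a scaffold of JNK signalling (3.06 against -0.19). The second Sowaha probe gave 0.42 in WT. The WT difference lay farthest below the Ccr2KO one for Fabp1, Marco and Cyp1a1. So it did for Syt10, a synaptotagmin (0.80 against 5.43), Trex2, an exonuclease of squamous epithelium (-0.26 against 4.24), and Crygc, a lens crystallin (-1.77 against 2.54). Mcpt4, a connective tissue mast cell protease (1.70 against 5.16), and Prm1, a sperm protamine (-0.10 against 3.31), were the others. For Syt10 the WT levels of 2.53 and 3.33 lay near the Ccr2KO day 28 level of 3.92, and only the untreated Ccr2KO array stood low, at -1.51. No test of any of these differences is possible with 1 array per group.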

How the data were processed

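RNA of CD45-negative mouse lung cells, pooled from 3 biological replicates per group, was labelled with Cy3 (200 ng each) and hybridised to one-colour Agilent arrays (design 028005). Per the file headers, the deposited intensity of each spot was background-subtracted and detrended by Feature Extraction 11.0.1.1. The authors' deposited value table holds the log2 of that intensity, unscaled, for 30574 probes (largest difference from the scanner values 5e-09; medians 9.82 untreated and 9.80 at day 28), and the submitters' processing notes name R 2.15.1. The rule behind its choice of probes is unknown here.

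Control spots were dropped (59305 of 62976 remained), outlier spots (141 and 161) set to missing, repeats averaged, and log2 intensity lowered by the 75th percentile of the array (signals of 1179.1 and 1159.4). Of 55681 probes, 64.3 and 62% were well above background, and none was saturated. RefSeq names and the GRCm38.p6 gene table gave 27509 probes 1 symbol and left 28172 unnamed; array annotation used mm9. The brightest probe stood for a gene (4317 genes had several). Replicates being absent, calls are by size (2-fold), with no test. The number of arrays limits the precision.

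The comparison, its members, the 54 lists and the 23 genes of special interest were chosen with earlier results of these data known. Named genes are the 20 largest increases and decreases (clone and predicted names left out), up to 6 changed members of a list with up to 3 against its direction, the 23 genes, and the 8 largest differences each way between the WT and Ccr2KO responses. Alternatives were normexp background correction (limma 3.58.1, R 4.3.3, offset 50, on the median signal because the files hold no mean signal) and quantile normalization. Others were the 75th percentile over probes above background on both arrays, the authors' table, other filters and limits, the mean of probes, and keeping outlier spots. Steps were run in Python 3.11.15 with pandas 2.3.3 and tested on simulated data.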

Additional observations from a re-analysis of the deposited data

Results flagged for a closer look

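Genes above background on all 4 arrays that were at least 2-fold apart in opposite directions in the WT and Ccr2KO pairs are given here; with 1 array per group, the difference between the pairs was not tested. Fabp1, an alveolar macrophage gene, differed by -4.04 in WT and by 1.15 in Ccr2KO cells. Marco, a scavenger receptor of the same cells, differed by -1.66 and 3.17. Crygc, a lens crystallin, differed by -1.77 and 2.54. Gdf15 differed by 2.38 and -1.66, Cdkn1a, the p53-induced cell cycle inhibitor p21, by 1.11 and -1.01, and Cxcl10, an interferon-induced chemokine, by 1.93 and -1.05. The untreated Ccr2KO levels of these last 3 genes were 4.98, 4.57 and 5.44, against 1.90, 3.00 and 2.47 in untreated WT cells. Of 15476 probes with no gene symbol that were above background on at least 1 WT array, 1234 (7.97%) were at least 2-fold higher and 2080 (13.4%) at least 2-fold lower at day 28, outside the comparison of named genes.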

How the results depend on the processing

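No paired analysis was possible because each group has 1 array of pooled RNA. Under normexp background correction 996 genes were higher and 497 lower (1573 and 1023 as reported), and at a 4-fold limit 590 and 175; in the authors' table, which holds 14931 of the genes, 1068 were higher and 678 lower. The share of calls that were higher ran from 58.8 to 66.7% over the settings that kept the 2-fold limit (60.6% as reported). Medians that moved were those of basal and squamous cell genes (0.40 with no background filter, 1.16 as reported), lymphocyte and eosinophil chemokines (1.28 under normexp, 1.93 as reported), platelet genes (-1.29 under normexp, -1.97 as reported) and erythroid genes (-2.22 under normexp and -2.09 with no filter, -3.01 as reported). Of 1032 listed or named genes, 55 dropped under 2-fold under normexp and 3 passed it. Sult1d1, a club cell gene, turned from -1.38 to 0.0079 with the mean of its probes. The cause of these shifts was not tested. Dim probes limit the folds of genes near background.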
